A study of Rattus norvegicus with 6 samples.

Results

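The subunits of oxidative phosphorylation were followed in RNA of liver endothelial cells, compared between control and cirrhotic rats. Members were the probe sets that carried exactly 1 gene symbol and whose symbol began with Nduf, Uqcr, Cox4 to Cox8 or Atp5, or was Sdha, Sdhb, Sdhc, Sdhd, Cyc1 or Cycs. The rule looked only at names and found 90 probe sets of 85 genes, of 10411 genes with a probe set of their own on the array. Of these, 79 genes were bright enough to be tested, of 7148 genes tested in all, and the other 6 are described with complex IV. Cycs (cytochrome c) is not analysed here.

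The study placed RNA of isolated liver endothelial cells from Wistar rats on 6 Affymetrix Rat Expression 230A arrays, 3 from control rats and 3 from rats taken through a procedure that induces cirrhosis. The cells of both groups came from livers perfused with collagenase, were separated by density centrifugation and were then captured on magnetic beads coated with antibodies. Rats of the cirrhosis procedure were adult males per the labels. Not given in the sources used here are the inducing agent, the age and sex of control rats, what the antibody binds and how many rats each array stands for. Because nothing says that the arrays stand for separate animals, p-values measure only the spread between these arrays.

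Oxidative phosphorylation takes electrons from NADH through complex I, or from succinate through complex II, and passes them by way of complex III and cytochrome c to complex IV, which hands them to oxygen. Complexes I, III and IV pump protons across the inner mitochondrial membrane, and ATP synthase, also called complex V, lets them flow back to make ATP. Most subunits are encoded in the nucleus, while a small set of core subunits is encoded in the mitochondrial genome; none of the latter had a named probe set here. Endothelial cells are known to make much of their ATP by glycolysis, and hepatocytes, the main cells of the liver, are rich in mitochondria.

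Some transcripts of the respiratory complexes were modestly higher in cells from cirrhotic rats, while 64 of the 79 genes tested did not pass. Among those higher were 4 of 8 genes of complex III and 6 of 16 of ATP synthase. Of the 79, 15 rose and 0 fell (limma, Benjamini-Hochberg adjusted p under 0.05), beside 12.7% of all 7148 genes that rose and 12.7% that fell. With fewer arrays the count was lower, and the share of all genes that rose changed too. Without control array 1 or 2, 4 of 78 members passed, beside 8.67% and 9.05% of all genes that rose. Without control array 3, 5 of 79 passed, beside 7.35%. With any 1 control array left out, members thus passed no more often than all genes. The count was 6 without cirrhotic array 1 (6.41% of all genes), 14 without cirrhotic array 2 (11.4%) and 10 without cirrhotic array 3 (13.4%). At an unadjusted p under 0.05 in the same limma fit, 29 were higher and 0 lower, beside 20.1% of all genes higher and 19.9% lower. With 3 arrays per group, a gene that did not pass is not shown to be unchanged. The difference between group means was above 0 for 71 of the 79 genes, against 49.7% of all genes. The median difference was 0.30 on the log2(signal + 16) scale, or 1.23-fold, and -0.00 over all genes. The changes of the 79 tested genes were small, from -0.28 to 0.80. None reached a 2-fold difference, which 698 of all 7148 genes did. Among the members too dim to be tested, 2 differed by more in a fit of all probe sets. These were Cox7a1 (-1.22) and Cox6b2 (1.31), described with complex IV. For 38 members all 3 cirrhotic signals lay above all 3 control signals and for 0 all lay below, against 22% and 23.3% of all genes (45.2% in either direction).

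**Figure D1:**
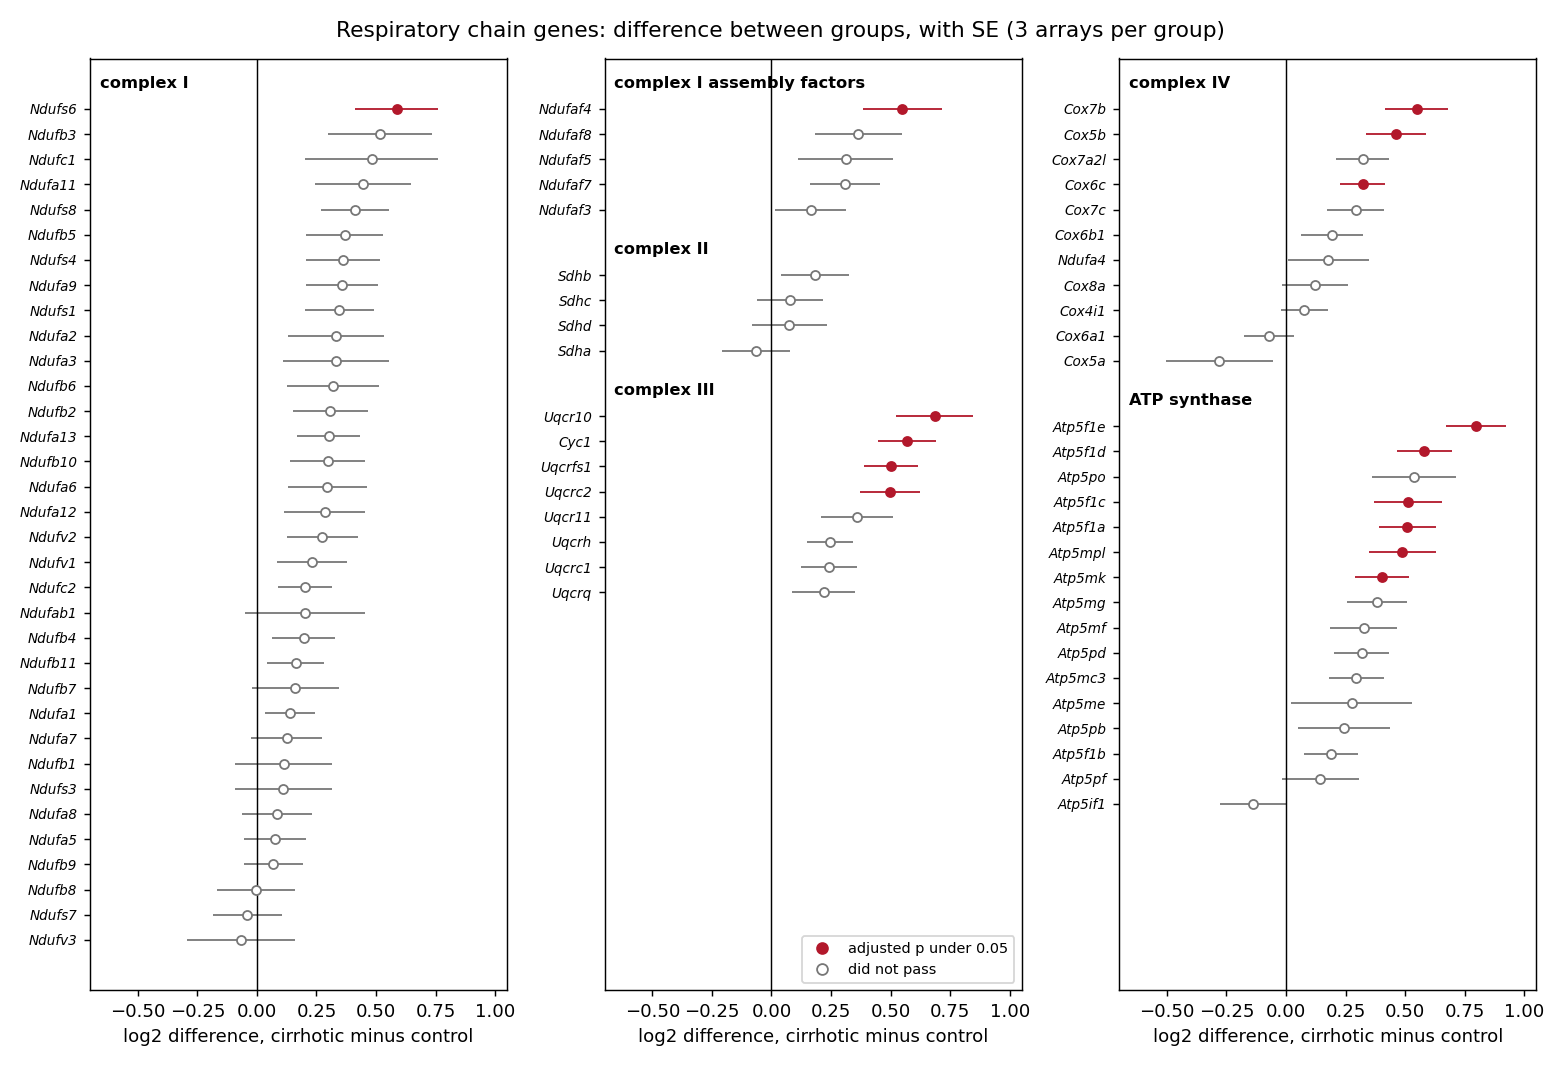
Each point is 1 gene, placed at its difference between cirrhotic and control arrays on the log2(signal + 16) scale with its standard error as a bar, in panels by complex; filled red points passed the test (limma, adjusted p under 0.05) and open points did not. All 8 genes of complex III lie to the right of 0 and the 4 genes of complex II lie close to it, between -0.06 and 0.18.

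The complexes differed in how many of their genes passed. Complex III had 4 of 8 genes higher and ATP synthase 6 of 16, beside 12.7% of all genes. Complex IV had 3 of 11, complex I had 1 of 34 and its assembly factors 1 of 5, and complex II had 0 of 4. Leaving out 1 array gave 1 to 4 in complex III, 2 to 6 in ATP synthase and 0 to 2 in complexes I and IV. Median differences on the log2(signal + 16) scale ran from 0.43 in complex III through 0.35 in ATP synthase, 0.31 in the assembly factors, 0.28 in complex I and 0.19 in complex IV to 0.08 in complex II. Over the subunits of the catalytic F1 part of ATP synthase, which the plan did not set apart, the median was 0.51. These differences between complexes were not tested. The remaining gene that the rule matched, Cox6c-ps1, is named as a pseudogene. It was counted apart from the complexes but is included in the counts over all 79 genes tested. Its difference was -0.06, with a standard error (SE) of 0.18 and an adjusted p of 0.835 (limma).

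The nuclear genes of the respiratory chain are known targets of the transcription factors NRF1 and GABP (also called NRF-2), and the 250 bases before each gene's start were searched for their motifs. Promoters came from RefSeq, build GRCr8, where 76 of the 85 member genes were found. The core of the NRF1 motif, GCGCA and GCGC parted by any 1 base, was found on either strand in 12 of these 76 promoters (15.8%) and in 4.17% of all 27457 promoters of the same length. The letters CCGGAAG of the GABP motif were in 20 (26.3%) against 7.74%. The YY1 letters AAGATGGC were in 2 (2.63%) against 1.69%, and the TATA box letters TATAAA in 8 (10.5%) against 13.1%. The 27457 promoters include genes without a probe set here, and shares over the genes tested were not computed. At least 1 of the NRF1, GABP and YY1 motifs was present in 7 of the 13 promoters of genes that rose (53.8%) and in 24 of the 58 of genes that were tested and did not pass (41.4%), so both kinds of gene often carried them. TATAAA was in 4 of those 13 (30.8%) and in 3 of those 58 (5.17%); this split was noticed after seeing the values.

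4 promoters are shown because they cover the outcomes described below: Uqcrc2 and Ndufs6 rose, Sdha carries the NRF1 letters and did not pass, and Cox7a1 was lower. Each is the gene's own strand, 5′ to 3′, and ends at the base before the start of the gene; capitals mark the NRF1 or GABP letters on either strand, so that CTTCCGG is the GABP motif read from the opposite strand. The coordinates are chr1:184598990-184599239 (plus strand) for Uqcrc2, chr1:31797150-31797399 (plus strand) for Ndufs6, chr1:30764303-30764552 (plus strand) for Sdha and chr1:94568966-94569215 (plus strand) for Cox7a1.
Uqcrc2: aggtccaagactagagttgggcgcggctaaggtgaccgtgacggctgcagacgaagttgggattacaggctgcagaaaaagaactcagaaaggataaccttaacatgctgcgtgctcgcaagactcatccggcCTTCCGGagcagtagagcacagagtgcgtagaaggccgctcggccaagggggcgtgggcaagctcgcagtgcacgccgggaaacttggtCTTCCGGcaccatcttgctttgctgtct
Ndufs6: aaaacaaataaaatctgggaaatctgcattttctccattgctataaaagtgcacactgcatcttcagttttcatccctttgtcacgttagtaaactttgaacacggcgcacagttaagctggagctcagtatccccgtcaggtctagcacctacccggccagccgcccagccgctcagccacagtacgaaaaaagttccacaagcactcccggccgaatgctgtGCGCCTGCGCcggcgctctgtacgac
Sdha: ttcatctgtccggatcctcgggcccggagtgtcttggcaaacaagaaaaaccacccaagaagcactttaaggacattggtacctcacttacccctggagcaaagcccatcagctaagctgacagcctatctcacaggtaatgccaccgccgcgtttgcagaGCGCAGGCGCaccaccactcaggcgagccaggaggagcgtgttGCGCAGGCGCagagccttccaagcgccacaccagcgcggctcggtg
Cox7a1: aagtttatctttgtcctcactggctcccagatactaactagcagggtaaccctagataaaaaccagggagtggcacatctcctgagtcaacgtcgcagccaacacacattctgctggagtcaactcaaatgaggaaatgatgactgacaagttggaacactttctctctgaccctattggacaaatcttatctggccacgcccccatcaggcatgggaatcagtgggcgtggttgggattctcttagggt
In Uqcrc2 the GABP letters begin 117 and 28 bases before the start, in Ndufs6 the NRF1 letters begin 26 bases before it, and in Sdha they begin 89 and 46 bases before it. The Cox7a1 window holds none of the 3 motifs. A match of letters is a description of the sequence and says nothing of binding in these cells.

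The mean signal without the lowest and highest 2% was between 399.2 and 399.6 on all 6 arrays, so levels are relative to the rest of each array. Most of the cells' endothelial markers were bright in both groups but lower in cirrhosis: all 9 sinusoidal endothelial genes fell, with summed signals of 44096 to 49252 in control and 19129 to 23059.9 in cirrhotic arrays, and 13 of 14 pan-endothelial genes fell. The 14th, the tight junction gene Cldn5, rose by 2.82, from 109 ± 24.5 to 870 ± 191 (SD, n = 3 each; limma, adjusted p = 0.000442). Markers of other cells moved too, beside 12.7% of all genes that rose and 12.7% that fell. Of 17 stellate cell, pericyte and myofibroblast genes 13 rose (summed signal 7523 to 8353 against 23967 to 40046), of 10 cholangiocyte genes 7 rose (951 to 1791 against 5473 to 13979), and of 23 hepatocyte genes 9 rose and 1 fell (49921 to 71850.5 against 59885 to 117584). Of 12 macrophage genes 2 rose and 1 fell (7058 to 12472 against 7892 to 16933), and of 12 T and NK cell genes 6 rose (4613 to 6456 against 4733 to 8972). Of the calls, 5 of the 7 cholangiocyte, 5 of the 13 stellate and 2 of the 6 T and NK cell genes, and Cldn5, had a control mean under the filter's threshold of 127.1 and entered the test through their cirrhotic values, so these counts are descriptions. Leaving out 1 array gave 4 to 9 higher cholangiocyte genes (4 without cirrhotic array 1 or 2), 11 to 14 stellate genes, 1 to 5 macrophage genes (1 without control array 3, 5 without cirrhotic array 3) and 2 to 6 T and NK cell genes (2 without cirrhotic array 1, 3 without cirrhotic array 2 or control array 3). For hepatocyte genes it gave 3 without control array 3, 4 without cirrhotic array 1, 5 without control array 2, 6 without cirrhotic array 3, 8 without control array 1 and 11 without cirrhotic array 2. No marker was at 0 in a group. Of all markers of these lists with a probe set, tested or not, Cldn3, Cldn7 and Acta2 lay at or under the brightest bacterial control probe set on every control array, and 0 did so on every cirrhotic array. Since each array holds a mixture of cells, a shift in which cells are present and a shift in RNA per cell cannot be told apart, and the part of other cell types in the differences below was not tested. The 3′ to 5′ signal ratio of beta-actin, a measure of RNA integrity, was 1.44 ± 0.19 on control arrays against 1.25 ± 0.019 on cirrhotic ones (SD, n = 3 each; exact two-sided permutation test, p = 0.4, with 0.1 the smallest p possible).

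Complex III, which passes electrons from ubiquinol to cytochrome c, had all 8 genes above 0 and 4 that rose. Cyc1 encodes cytochrome c1, the haem subunit that hands the electron on. Its signals were 1032, 986 and 1059.9 on the control arrays and 1409, 1511 and 1678 on the cirrhotic arrays. The groups did not overlap, and the controls lay close together. The difference was 0.57 on the log2(signal + 16) scale (SE 0.12, 1.48-fold, 95% confidence interval 1.22 to 1.80; limma, adjusted p = 0.0127). Uqcrfs1 encodes the Rieske iron-sulfur protein, whose mobile head carries electrons from ubiquinol to cytochrome c1. It read 1912, 1946 and 2115 in control and 2605, 2776 and 3107 in cirrhotic arrays, without overlap, a difference of 0.50 (SE 0.11; limma, adjusted p = 0.016).

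The other genes of complex III that rose encode subunits without a redox centre. Uqcr10, a small membrane subunit, read 1518, 1477 and 1839 in control and 2269.5, 2398 and 3184 in cirrhotic arrays. Cirrhotic array 3 stood above the other cirrhotic arrays for this gene, and the difference of 0.69 (SE 0.16, 1.61-fold) was the largest of the complex (limma, adjusted p = 0.0187). Uqcrc2, a core protein that faces the matrix and helps hold the complex together, read 1179, 1378 and 1216 in control and 1665, 1722 and 1966 in cirrhotic arrays, a difference of 0.50 (SE 0.13; limma, adjusted p = 0.0243). The remaining genes lay lower. Uqcr11 differed by 0.36 (limma, adjusted p = 0.115), the hinge protein gene Uqcrh by 0.25 (0.0978), the other core protein gene Uqcrc1 by 0.24 (0.171) and Uqcrq by 0.22 (0.26), and of these only Uqcrq overlapped between the groups. Without cirrhotic array 3 all 4 calls of complex III remained and its median difference was 0.33; without control array 1 the complex had 1 call, that of Cyc1, and without control array 2 it had 2.

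**Figure D2:**
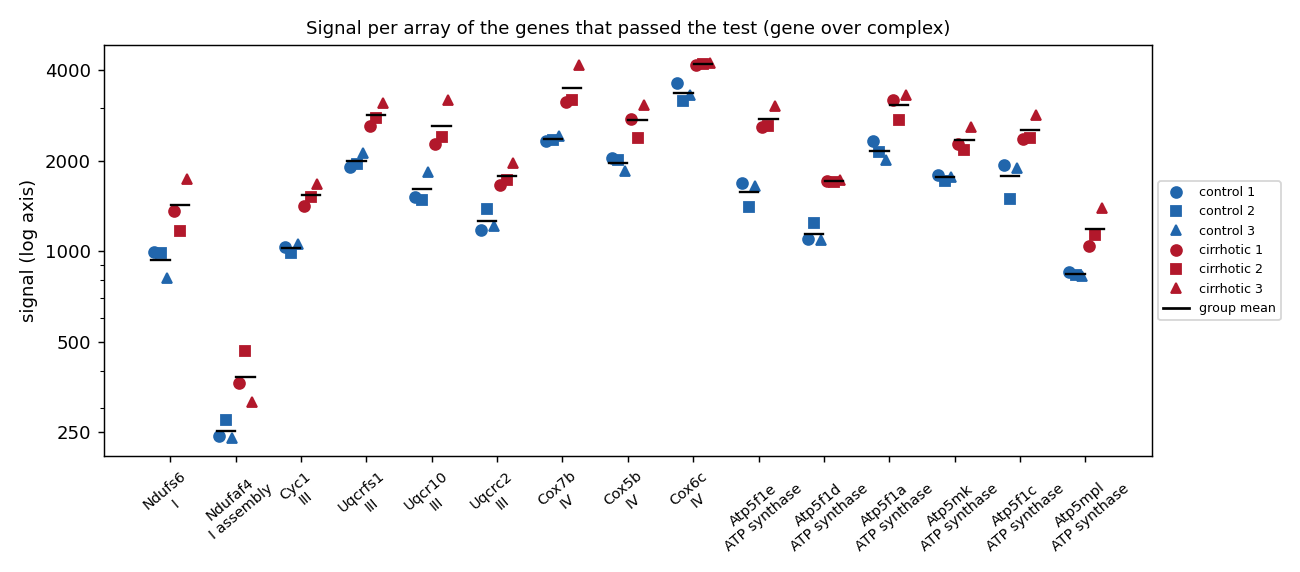
Signals of the 15 genes that passed the test, on a log axis, with 1 symbol per array (blue control, red cirrhotic) and a black line at each group mean; genes are labelled with their complex. In each of the 15 genes the 3 cirrhotic arrays lie above the 3 control arrays, and in 14 of them the highest signal is that of cirrhotic array 3. The genes were picked by their difference between the groups, so their separation follows largely from that choice. Of all genes 22% lay apart in this direction.

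ATP synthase has a catalytic F1 head, a membrane part that carries the protons and a peripheral stalk that holds the head still. In F1, 4 of its 5 subunit genes rose. Atp5f1e, which encodes the epsilon subunit at the foot of the central stalk, read 1686, 1399 and 1642 in control and 2596, 2603 and 3043 in cirrhotic arrays. No other gene tested among the members had so large a difference, 0.80 (SE 0.13, 1.74-fold, 95% confidence interval 1.42 to 2.13; limma, adjusted p = 0.00413), and the groups lay well apart. Atp5f1d, for the delta subunit beside it, read 1094, 1242 and 1092 in control and 1708, 1705 and 1731 in cirrhotic arrays. The cirrhotic arrays were nearly equal, so cirrhotic array 3 did not stand out, and the difference was 0.58 (SE 0.11; limma, adjusted p = 0.0093).

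The alpha and gamma subunits of F1 rose as well. Atp5f1a (alpha, which forms the ring of the head together with beta) read 2317, 2137 and 2005 against 3177, 2734 and 3311, a difference of 0.51 (SE 0.12; limma, adjusted p = 0.0182). Atp5f1c (gamma, the rotating shaft) read 1938, 1489.5 and 1894 against 2362, 2386 and 2837, also 0.51 (SE 0.14; limma, adjusted p = 0.0352). Neither overlapped between groups. Atp5f1b, for the catalytic beta subunit, did: it read 5280.4, 5388 and 4502 in control and 6103, 5097 and 6107 in cirrhotic arrays, a difference of 0.19 (SE 0.11, 95% confidence interval -0.08 to 0.45; limma, adjusted p = 0.259). The differences of Atp5mk and Cox6c, genes that passed, lie inside that interval.

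Of the 11 other genes of ATP synthase 2 rose, both for small proteins of the membrane part, and 10 were above 0. Atp5mk read 1795, 1716 and 1771 in control and 2274, 2170.5 and 2580.0 in cirrhotic arrays, a difference of 0.40 (SE 0.11; limma, adjusted p = 0.0345). Atp5mpl read 851, 835 and 826 against 1038, 1136 and 1394, a difference of 0.49 (SE 0.14; limma, adjusted p = 0.0397). Both had tightly grouped controls. Atp5po, which encodes the stalk protein that grips the top of F1, differed by as much, 0.54, but its cirrhotic arrays spread from 1305 to 2075 and it did not pass (SE 0.17; limma, adjusted p = 0.0575). The gene with a difference under 0 was Atp5if1, whose product is not a subunit but an inhibitor that blocks the enzyme from running backwards. It read 1223, 968 and 1119 in control and 1089, 979 and 926 in cirrhotic arrays, a difference of -0.14 that overlapped between groups (SE 0.14; limma, adjusted p = 0.491). Without cirrhotic array 3, 3 genes of ATP synthase passed, Atp5f1e, Atp5f1d and Atp5f1a. It had 3 calls without control array 1. Leaving out cirrhotic array 1 or either of the other control arrays left 2, Atp5f1e and Atp5f1d.

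Complex I, which oxidises NADH and is the largest complex of the chain, had differences above 0 for 31 of 34 genes, but the cirrhotic arrays spread widely and 1 gene passed. Ndufs6, an accessory subunit that binds zinc, read 996, 986 and 814 in control and 1363, 1164 and 1738 in cirrhotic arrays. The groups did not overlap, and the difference was 0.59 (SE 0.17; limma, adjusted p = 0.0425). Cirrhotic array 3 was its highest array, and without that array the difference was 0.43 and did not pass (limma, adjusted p = 0.0765). The call was also lost when any control array or cirrhotic array 1 was left out, while without cirrhotic array 2 complex I had 2 calls. For 13 of the 34 genes the groups did not overlap, all with the cirrhotic arrays above. Of all genes 22% lay apart in that direction and 45.2% in either direction. For 31 of the 34 the highest of the 6 arrays was cirrhotic array 3, beside 18.8% of all genes. The median difference of 0.28 became 0.14 without that array.

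The core subunits of complex I carry the electron path from NADH to ubiquinone, and 0 of the 6 nuclear-encoded ones measured passed. Ndufs8, an iron-sulfur protein late in the electron path, read 596, 563 and 531 in control and 709, 681 and 885 in cirrhotic arrays, a difference of 0.41 without overlap (SE 0.14; limma, adjusted p = 0.0709). Ndufs1, the largest iron-sulfur subunit, differed by 0.35 (SE 0.14; limma, adjusted p = 0.112), also without overlap. Ndufv2, an iron-sulfur subunit, differed by 0.28 (0.207) and Ndufv1, which binds NADH and the flavin, by 0.23 (0.28). The others lay near 0: Ndufs3 differed by 0.11 (SE 0.20; limma, adjusted p = 0.724), and Ndufs7 by -0.04 (SE 0.15; limma, adjusted p = 0.868). Over the core subunits the median was 0.25, beside 0.29 over the 28 accessory ones. The lowest of the complex was Ndufv3, an accessory subunit, at -0.07 (SE 0.23; limma, adjusted p = 0.855).

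The 5 Ndufaf genes encode factors that help build complex I and are not part of it. Ndufaf4 rose: it read 243, 276 and 239.8 in control and 365, 464 and 314 in cirrhotic arrays, a difference of 0.55 (SE 0.17; limma, adjusted p = 0.0458). Here cirrhotic array 2 was highest and array 3 lowest of the cirrhotic arrays, the reverse of most members, and the call remained without array 3 (limma, adjusted p = 0.0224) but not without any other single array. The other 4, Ndufaf3, Ndufaf5, Ndufaf7 and Ndufaf8, were above 0 and did not pass.

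Complex II, succinate dehydrogenase, belongs both to the respiratory chain and to the tricarboxylic acid cycle, and none of its 4 genes passed. Sdha, the flavoprotein that oxidises succinate, read 1654, 1577 and 1641 in control and 1277, 1710.3 and 1709 in cirrhotic arrays. The groups overlapped, and the difference was -0.06 (95% confidence interval -0.40 to 0.27; limma, adjusted p = 0.774). Sdhb, the iron-sulfur subunit, read 1561, 1491 and 1296 against 1492, 1549 and 1919, a difference of 0.18 (-0.15 to 0.51; limma, adjusted p = 0.378). The membrane anchors Sdhc and Sdhd each differed by 0.08 (-0.25 to 0.40 and -0.29 to 0.44; limma, adjusted p = 0.718 and 0.758), and a dimmer probe set of Sdhd gave 0.18. The upper ends of these intervals reach the median of complex III in 2 of the 4 genes, Sdhb and Sdhd, so a difference of that size lies inside the interval there. Without cirrhotic array 3 the median of complex II was -0.07.

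Complex IV, cytochrome c oxidase, reduces oxygen; its nuclear subunits surround a core encoded in the mitochondrial genome. Of 11 genes tested 3 rose, all for small nuclear subunits. Cox7b read 2328, 2343 and 2419 in control and 3144, 3175 and 4156 in cirrhotic arrays, a difference of 0.55 (SE 0.13; limma, adjusted p = 0.0199). Cox5b, which binds zinc, read 2044, 2011 and 1846 against 2753, 2378 and 3055, a difference of 0.46 (SE 0.13; limma, adjusted p = 0.0313). Cox6c read 3616, 3147 and 3299.5 against 4167, 4185 and 4214, a difference of 0.32 (SE 0.10; limma, adjusted p = 0.0424). Its cirrhotic arrays were nearly equal, while those of Cox7b and Cox5b were highest on cirrhotic array 3. Without that array Cox7b still passed (limma, adjusted p = 0.0241), Cox5b and Cox6c did not (0.0604 and 0.0642), and Cox7a2l, which helps join complexes III and IV into supercomplexes, came to pass; complex IV had 0 calls without any 1 of the control arrays and 1 without cirrhotic array 1. On all 6 arrays Cox7a2l differed by 0.32 (limma, adjusted p = 0.0677).

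Other subunits of complex IV had smaller differences. Cox4i1, the common form of the regulatory subunit 4, read 4080.2, 4116 and 4222 in control and 3934, 4692 and 4513 in cirrhotic arrays, a difference of 0.08 (95% confidence interval -0.15 to 0.31; limma, adjusted p = 0.602). Cox6a1, the liver-type partner of a muscle form, differed by -0.07 (SE 0.10; limma, adjusted p = 0.651). Ndufa4, named after complex I but since placed in complex IV, differed by 0.18 (SE 0.17; limma, adjusted p = 0.477). Cox5a was the lowest of the members tested at -0.28 (SE 0.22; limma, adjusted p = 0.391). Its dim probe set read 142, 181 and 116 in control and 110.3, 95.3 and 147 in cirrhotic arrays.

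Complex IV also has subunit forms used mainly in muscle, lung, testis or low oxygen, and 6 of these had a probe set. All 6 were among the dimmest 40% of probe sets and were fitted only without that filter, where 9.25% of 10411 genes rose and 8.03% fell. Cox7a1, the heart and skeletal muscle form of subunit 7a, was lower: it read 126, 139.6 and 176 in control and 52.6, 50.1 and 58.6 in cirrhotic arrays. The groups lay far apart in the direction opposite to most members, with means of 147 ± 26.2 and 53.8 ± 4.37 (SD, n = 3 each) and a difference of -1.22 (SE 0.19; limma without the filter, adjusted p = 0.00693). Every array read above its brightest bacterial probe set (of 27, which stand for background; 21.7 to 49.9 over the arrays), but the cirrhotic values were close to that range. Of 13 muscle markers with a probe set 1 was bright enough to be tested and did not pass. Read without the filter, 1 was lower without overlap, Tnni3 (95.4, 118.6 and 175.3 in control, 23.4, 47.4 and 37.4 in cirrhotic arrays), and 1 was higher, Acta1 (5.6, 6.9 and 24.8 against 25.4, 32 and 34.8); both were chosen after their values were seen, and 6 of the 13 lay at or under the bacterial probe sets on every control array.

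The other restricted forms did not pass. Cox6b2, the testis form of subunit 6b, read 39.5, 39.2 and 21.1 in control, all under the highest bacterial probe set, and 168, 52.9 and 121 in cirrhotic arrays (difference 1.31, SE 0.37; limma without the filter, adjusted p = 0.0555). Cox6a2, the muscle form of subunit 6a, read 64.3, 29.1 and 18.6 against 71.6, 67.8 and 64.6 (0.75, SE 0.31; adjusted p = 0.15). Cox4i2, the lung form of subunit 4 that is also induced by low oxygen, read 110.3, 122 and 97.7 against 106, 122 and 103, a difference of 0.00 (SE 0.18; adjusted p = 0.993). Ndufa4l2, another gene known to be induced by low oxygen, differed by -0.01 (adjusted p = 0.983), and Cox8b stayed between 3.1 and 9, within background.

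**Figure D3:**
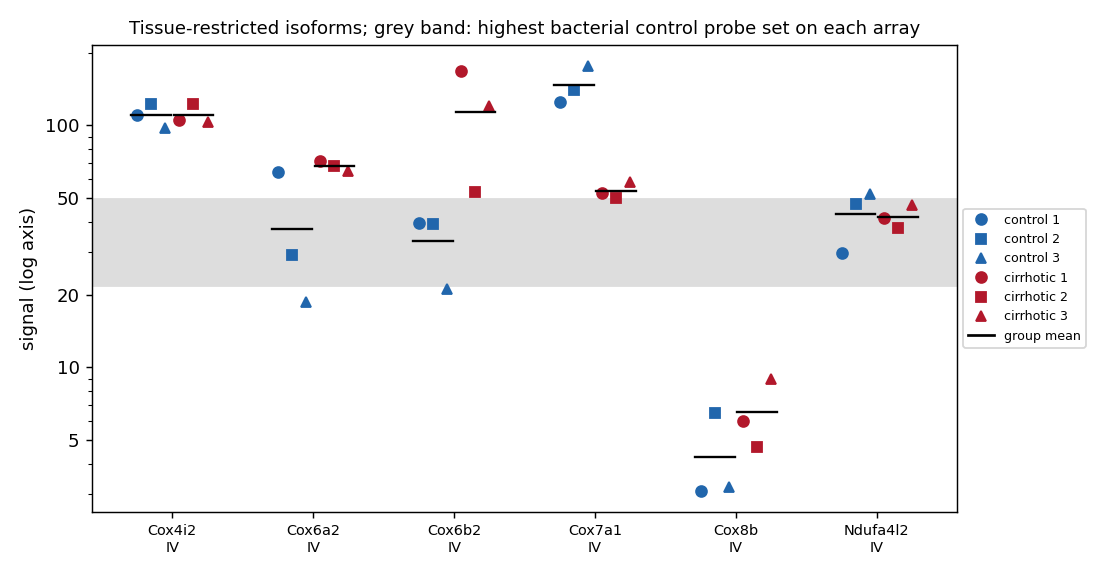
Signals of the 6 tissue-restricted forms of complex IV subunits on a log axis, with 1 symbol per array, black lines at group means, and a grey band from 21.7 to 49.9, the range over arrays of the brightest bacterial probe set. Cox7a1 is the gene whose control arrays all lie above its cirrhotic arrays, while Cox8b lies below the band on every array.

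The members did not vary evenly among the cirrhotic arrays. Of the 79 genes tested, 66 had their highest signal of all 6 arrays on cirrhotic array 3, against 18.8% of all genes, and the median gene stood 0.30 higher on that array than on the mean of cirrhotic arrays 1 and 2. Averaged over all members and set against the mean over 6 arrays, the level was -0.11, -0.13 and -0.17 on control arrays 1 to 3 and 0.07, -0.00 and 0.34 on cirrhotic arrays 1 to 3. All 3 cirrhotic arrays were thus above the controls, with array 3 farthest. Without array 3, 10 of 79 members rose, 9 of them among the 15, beside 13.4% of all genes that rose. In that fit 62 of 79 members were above 0, beside 3481 of 7129 genes. The median difference was 0.16, and -0.01 over all genes.

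Hepatocyte markers varied over the arrays in a related way. All 23 were highest of the cirrhotic arrays on array 3, and the mean level of the list was 0.07, -0.46 and -0.75 on control arrays 1 to 3 and 0.31, -0.19 and 1.01 on cirrhotic arrays 1 to 3, so that within each group the arrays fell in the same order as for the members as a whole. Among control arrays the range of the hepatocyte list was 0.81, while that of complex III was 0.01 and that of ATP synthase 0.02. On cirrhotic arrays 1 and 2 alone, complex III stood 0.33 and ATP synthase 0.28 above the control arrays; complex I stood 0.12 above them and complex II was at -0.05. Cirrhotic array 2 had a hepatocyte level under that of control array 1, and on it complex III read 0.14 against -0.20 on that control array, and ATP synthase 0.08 against -0.17, while complex I read -0.07 on both. These arrays were not matched in other lists: sinusoidal endothelial genes read -0.55 on cirrhotic array 2 against 0.50 on control array 1. Stellate cell genes read 0.73 against -0.76 and cholangiocyte genes 1.75 against -1.03. The part of hepatocyte RNA in the differences of the members was not tested.

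**Figure D4:**
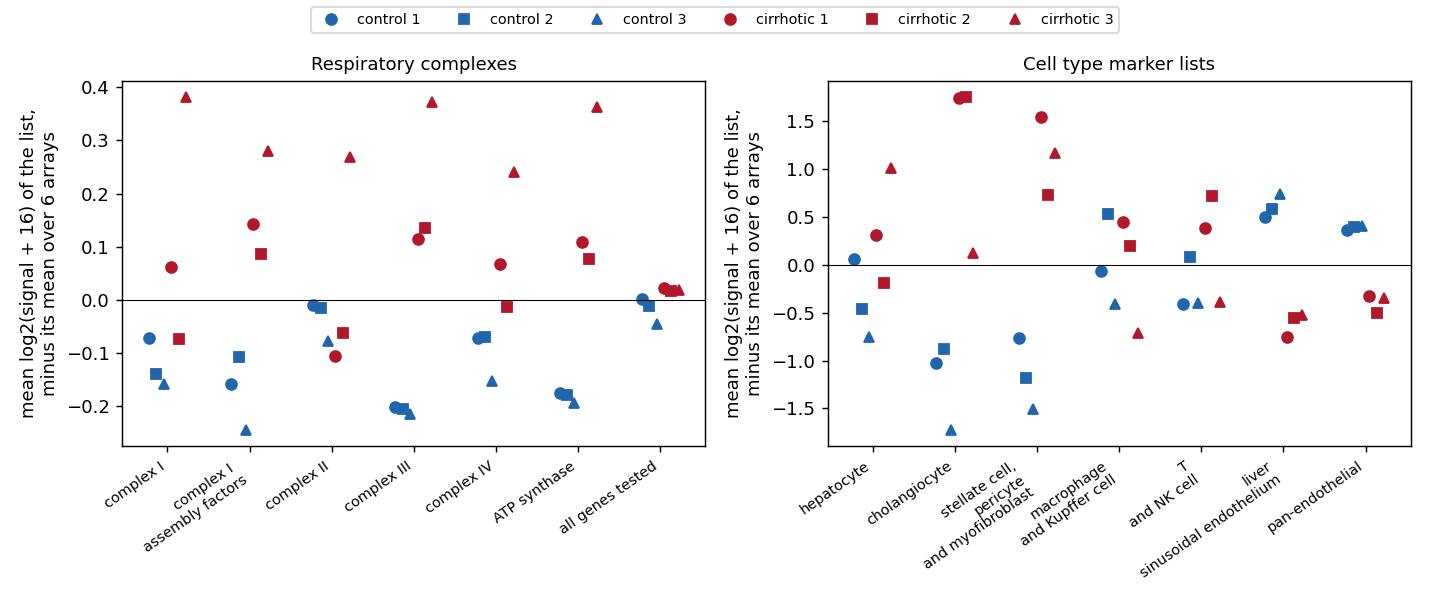
Mean log2(signal + 16) of each list on each array, less its mean over the 6 arrays; the left panel shows the respiratory complexes and all genes tested, the right panel the cell type marker lists, on a wider axis. Control arrays of complex III and ATP synthase lie within 0.01 and 0.02 of each other and under all cirrhotic arrays, whereas cirrhotic array 3 is the highest array for every complex and for the hepatocyte list.

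**Figure D5:**
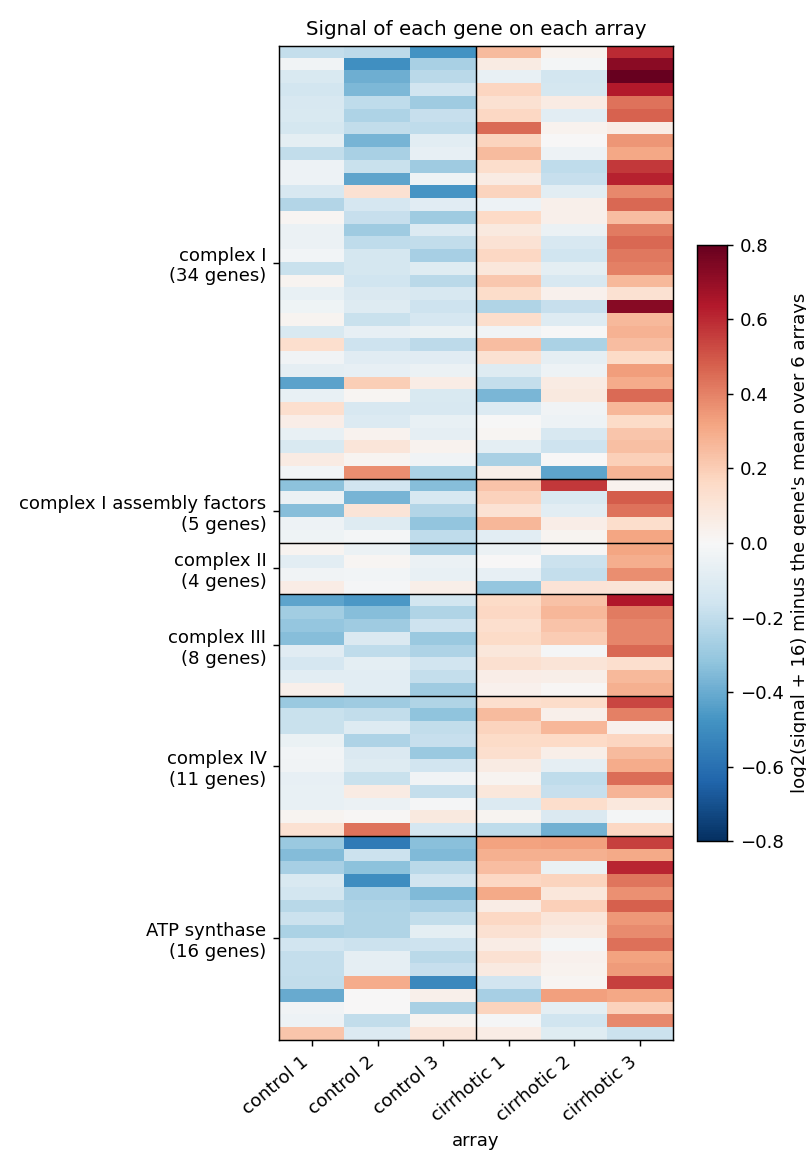
Rows are the 78 tested genes of the complexes, ordered within each complex by their difference, and columns are the 6 arrays; colour gives log2(signal + 16) less the gene's mean over the arrays (red higher, blue lower). The column of cirrhotic array 3 is red in most rows, and cirrhotic array 2 is pale over most of complex I and red in the upper rows of complex III.

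Other genes of mitochondrial energy metabolism were read from lists of known members, beside all genes, of which 12.7% rose and 12.7% fell. The lists' counts moved with the arrays used. Leaving out each array in turn gave 0 to 5 higher genes of the tricarboxylic acid cycle, 1 to 3 carriers and porins and 0 to 3 assembly factors. It gave 8 to 22 mitochondrial ribosomal proteins, 4 to 6 import genes, 1 to 3 chaperones and proteases and 3 to 6 genes induced by low oxygen. Over the same fits 6.41% to 13.4% of all genes rose. The smallest counts came without control array 3 for the ribosomal, import and chaperone lists (for chaperones also without control array 1), and without cirrhotic array 1 for carriers and the low-oxygen list. In the tricarboxylic acid cycle, which supplies the chain with NADH and succinate, 4 of 15 genes rose and 0 fell, with a median of 0.34. These were Idh2 (0.60, SE 0.14; limma, adjusted p = 0.0182), Dlst (0.61; 0.0283), Mdh2 (0.55; 0.029) and Suclg1 (0.58; 0.043). Without cirrhotic array 3, 1 call remained, that of Idh2, which was lost when cirrhotic array 1 or control array 2 or 3 was left out. Among 14 carriers and porins 3 rose and 1 fell: the phosphate carrier Slc25a3, which feeds ATP synthase (0.48; 0.0147), and the outer membrane channels Vdac2 (0.49; 0.0128) and Vdac3 (0.55; 0.0145) rose. Vdac2 and Vdac3 kept their calls in 5 of 6 fits with 1 array fewer, and Slc25a3 in 3. Ucp3, an uncoupling protein, fell by 0.60 (limma, adjusted p = 0.0444), a call lost when any 1 array was left out.

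Of 25 assembly factors of the chain outside the rule 3 rose (12%, beside 12.7% of all genes) and 1 fell, with a median of 0.20. Ttc19 of complex III (0.58; limma, adjusted p = 0.0305) and Cox19 (0.54; 0.0365) and Cox14 (0.46; 0.041) of complex IV rose, though none passed without cirrhotic array 3. Surf1, an assembly factor of complex IV, fell: it read 756, 643 and 696 in control and 526, 460.2 and 459 in cirrhotic arrays, without overlap (-0.52, SE 0.13; limma, adjusted p = 0.0233). That call was lost when cirrhotic array 2 or control array 1 or 3 was left out (highest adjusted p 0.0876). Of 69 mitochondrial ribosomal protein genes, whose products translate the mitochondrially encoded subunits, 21 rose and 1 fell (median 0.33; 13 and 1 without cirrhotic array 3). Mrpl55 read 468, 456 and 478 against 964, 1046 and 1163 (1.15, SE 0.13; limma, adjusted p = 0.000995), and Mrpl32 (0.98), Mrps6 (0.85) and Mrpl58 (0.82) followed. Of 20 import genes 5 rose and 0 fell, with and without cirrhotic array 3, among them the translocase subunits Timm9 (0.89), Timm13 (0.88), Tomm5 (0.76) and Tomm7 (0.54). Of 11 chaperones and proteases 5 rose and 0 fell, led by Hspa9 (0.69; limma, adjusted p = 0.0155), the matrix chaperone that pulls in imported proteins, and by Hspe1 (0.65) and Hspd1 (0.48), which fold them.

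Of 8 regulators of mitochondrial gene expression tested, 0 rose and 1 fell, with a median of -0.40; leaving out 1 array gave 0 to 3 lower, 3 of them without cirrhotic array 2. Nfe2l2, the stress-response factor also called NRF2 and unrelated to GABP, read 2982, 2816 and 3067 in control and 1731, 2261 and 1653 in cirrhotic arrays (-0.66, SE 0.14; limma, adjusted p = 0.0127), a call lost without control array 3 or cirrhotic array 1. Gabpb1, which encodes a subunit of the GABP factor, read 820.2, 609 and 695 against 574, 467 and 478, without overlap, and did not pass (-0.47, SE 0.16; limma, adjusted p = 0.0626). Polg2 (-0.45; 0.0594) and Ppard (-0.46; 0.0767) did not pass either; these 3 were named after their values were seen. Tfam, which packs and transcribes mitochondrial DNA, read 308, 281 and 319 against 379.7, 393 and 402, without overlap, and did not pass (0.36, SE 0.12; limma, adjusted p = 0.0638). The coactivator gene Ppargc1a (3.23 ± 1.46 against 5.07 ± 5.49, SD, n = 3 each) and its partner Esrra (70.5 ± 37.0 against 78.8 ± 40.2, SD, n = 3 each) were too dim to be tested, and Nrf1 and Gabpa are not analysed here. Among 8 fusion and fission genes 0 rose and 1 fell, the fission receptor gene Mff (-0.59; limma, adjusted p = 0.0424), a call that was also lost in every fit with 1 array fewer. Of 17 genes known to be induced by low oxygen 6 rose and 1 fell, with a median of 0.05: Egln3 (1.79), Vegfa (1.59) and the glycolytic gene Ldha (0.68; limma, adjusted p = 0.00643) rose, though Egln3, with a control mean of 65.5, entered the test through its cirrhotic values, and Pfkfb3, whose product speeds glycolysis, fell by 1.59.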

How the data were processed

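Arrays were grouped by their sample titles; 1 control array without a number was called control 1. The authors deposited linear intensity values, with 1 signal for each probe set on each array; the summary software is not given in the sources used here. Signals were turned into log2(signal + 16), 16 being the 10th percentile. The 57 control probe sets and the dimmest 40% (mean signal under about 127) were left out, and the other 9519 of 15866 probe sets were fitted with limma 3.58.1 in R 4.3.3 (lmFit, eBayes with a variance trend; two-sided, Benjamini-Hochberg), checked on simulated data. A gene was read on its brightest probe set. Symbols came from the platform annotation: 12783 probe sets had 1, 312 several and 2771 none. Fold changes understate dim genes. Arrays have no read depth; their number limits the precision. Named genes were those that passed, the core and complex II subunits, restricted isoforms and each complex's extremes, plus up to 4 per list; others were named after their values were seen to complete a complex. The members and lists were chosen with earlier results of these data known. Alternatives covered scaling, pseudocount, filter, variance model, array weights, array number as a block and leaving out each array.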

Additional observations from a re-analysis of the deposited data

How the results depend on the processing

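Under 17 alternatives no gene that passed changed direction, and Atp5f1e, Atp5f1d and Cyc1 passed in all 17 (limma, highest adjusted p 0.0189, 0.0443 and 0.0449). Members higher numbered 15, but 6 with each array's median centred (complex I 0, III 2, IV 1, ATP synthase 3), which moved the median of all genes to -0.08 and the genes higher and lower to 9.96% and 14.9% and put the median of complex II at -0.00. They numbered 23 with array weights (complex I 4; 3772 probe sets against 2421). Without the filter 1 member was lower, Cox7a1, and complex I had 0 higher. With the larger pseudocount tried the median of the assembly factors was 0.20. Leaving out 1 array gave 1335 to 2472 probe sets called and 4 to 14 members higher, beside 6.41% to 13.4% of all genes. Members higher numbered 0 to 2 in complex I, 1 to 4 in III, 0 to 2 in IV and 2 to 6 in ATP synthase. Medians were 0.16 to 0.35 over all members, 0.21 to 0.40 for assembly factors and 0.0911 to 0.28 for complex IV. Atp5mpl and Cox6c lost their call in each of these 6 fits. The titles do not say whether equal array numbers mark pairs. Deviations from the group means correlated at 0.02, -0.01 and -0.16 between arrays of equal number. Between the others they correlated at -0.22 to 0.22, and such values cannot settle pairing. With the number as a replicate block 8 of 79 members were higher, beside 10.5% of all genes. Of these 8, 0 were in complex I and 1 in complex IV. Dim genes are limited by signal over background.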

Other observations

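Another 9 probe sets carried several symbols, so that no gene can be assigned to them. In each, at least 1 symbol matched a looser form of the naming rule. In this form Sdha to Sdhd, Cyc1 and Cycs need only begin the symbol. All 9 were bright enough to be tested. In cirrhotic arrays 3 were higher and 0 lower (limma, adjusted p under 0.05), beside 12.3% and 13.2% of all tested probe sets. Differences of the 9 ranged from 0.11 to 0.89 with a median of 0.35 on the log2(signal + 16) scale.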
